A study of Mus musculus with 148 samples.

Results

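Tumor-labelled wells are the wells that carried the value Tumor in the annotation column of the deposited cell table. The plates were sorted for immune or photoactivated host cells, from mice given EO771 breast tumor cells and from normal mice. They numbered 94 of 24020 annotated wells and came from 14 of 27 mice, and 71 of the 94 lay on plates of primary tumors. EO771 is a mouse mammary carcinoma line, used here with a tdTomato label in female PA-GFP C57BL/6 mice, whose own cells turn green when a region is photoactivated under the microscope. Cells were injected into a mammary gland at 8 weeks of age and tumors were resected 3 weeks later. Lungs were then taken from mice with metastases (whole sections, labelled MET, photoactivated MET Core and MET Invasive margin, and Distal normal tissue of the same lungs) or from mice that stayed Relapse-free. Primary tumors and Pre-MET lungs were taken with the primary tumor still in place, and Normal lungs came from mice without tumor. Single cells were sorted into plates of 384 wells as CD31-CD45+, or as CD31-GFP+ after photoactivation, with CD45 added for some plates. Some plates of Relapse-free lungs were sorted as CD31-GFP-CD45+. The 3' ends of transcripts were counted by unique molecular identifiers (UMIs). CD31 marks endothelium, CD45 marks blood cells and GFP marks host cells, so no sort was set to collect EO771 cells. Every tumor was of the same cell line, and each mouse was taken as 1 replicate.

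Mammary epithelial cells carry the keratin pair Krt8 and Krt18, which form the intermediate filaments of simple epithelium, together with the adhesion proteins Epcam and Cdh1. Carcinoma cells that take on a mesenchymal state replace these by vimentin filaments, collagens and the transcription factor Twist1. Many carcinomas also secrete osteopontin, the product of Spp1, a phosphoprotein that binds integrins and CD44 and that macrophages make as well. Immune cells, in contrast, are known by the phosphatase Ptprc (CD45), and antigen-presenting cells by MHC class II genes such as H2-Ab1 and Cd74.

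Every primary tumor held Tumor-labelled wells. They made up 4 of 299 annotated wells in mouse 8 (1.34%), 9 of 345 in mouse 9 (2.61%), 46 of 450 in mouse 10 (10.2%) and 12 of 535 in mouse 38 (2.24%), with a mean of 4.10% ± 4.11 (SD, n = 4). Mouse 10 stood above the others: its 95% Wilson interval, 7.75 to 13.4%, did not reach the intervals of the other 3 tumors, which ended at 3.39 to 4.88%. These intervals cover counting error only.

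In lungs the label was rare. MET Core held 6 Tumor-labelled wells in 3 of 13 samples, at a mean of 0.244% ± 0.644 (SD, n = 13), and MET Invasive margin held 6 in 4 of 7 samples, at 0.631% ± 0.860 (SD, n = 7). MET sections held 5 in 3 of 13 samples, with 1 well in mouse 28 and 2 each in mice 31 and 32. A single such well lay in Distal normal tissue of mouse 36, 1 in the Pre-MET lung of mouse 10, 3 in the Relapse-free lung of mouse 6 and 1 in the Normal lung of mouse 1, which had no tumor. The Pre-MET lungs of mice 8 and 9 held none, while the primary tumors of the same mice held 4 and 9. The mean share was 0.0676% in MET sections, 0.0112% in Distal normal tissue, 0.0679% in Pre-MET, 0.0462% in Relapse-free and 0.0484% in Normal lungs. Each of these means but that of MET rested on wells of 1 sample.

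**Figure D1:**
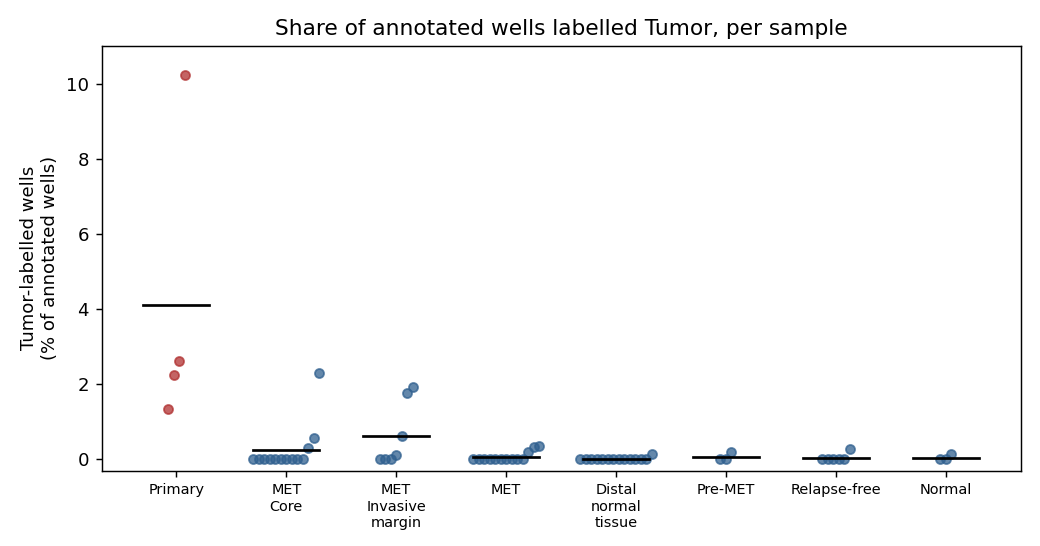
Percent of annotated wells labelled Tumor in each sample (1 tissue of 1 mouse), by tissue; each point is 1 sample and each bar is the mean of its group. The 4 primary tumors lie between 1.34 and 10.2%, and no lung sample reaches above 2.31%.

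The share of Tumor-labelled wells was 3.86 percentage points higher in primary tumors than in MET Core (two-sided exact permutation test over 4 and 13 samples, p = 0.0013), and 1.82 points higher without mouse 10. Among wells with at least 1000 UMIs the difference was 1.12 percentage points (exact permutation p = 0.056), and 60 of the 94 wells lay below that depth. The sort differed with the site, CD31-CD45+ for the tumors and GFP+ for the cores (with CD45 added in mouse 17), so site and sort cannot be told apart in this comparison. Sequencing batch was also tied to site: 3 tumors shared a batch with no lung metastasis, and in the batch of mouse 8 the tumor had 4 of 299 wells (1.34%) and the cores 0 of 653. MET sections and Distal normal tissue, both sorted as CD31-CD45+, had 0.0676% ± 0.133 (SD, n = 13) and 0.0112% ± 0.0418 (SD, n = 14), and this difference did not pass the test (two-sided permutation test, p = 0.153). With each mouse as its own control it was higher in MET in 3 of 13 mice and lower in 1 (exact sign-flip p = 0.25). As only 4 mice differed, the sign-flip test could not pass 0.05 in either direction. Batch was uneven here too. In the batch of mouse 8, MET sections held 4 of their 5 Tumor-labelled wells (4 of 1816, 0.220%) and Distal normal tissue its only 1 (1 of 1295, 0.0772%).

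The Tumor label covered wells of very different depth. In 6 wells, 1 of mouse 8, 2 of mouse 10 and 3 of mouse 38, between 39656 and 87550 UMIs and 5974 to 9064 genes were counted, and these 6 held 80.0% of the 518222 UMIs under the label. The other 88 wells had 500 to 8147 UMIs with a median of 783.5, and no well fell between 8147 and 39656 UMIs. Among all immune wells of the series, only 7 of 23425 reached the depth of the shallowest of the 6. In what follows, deep wells are the 6 above 10000 UMIs and shallow wells the 88 below, a division that was made after the depths were seen.

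**Figure D2:**
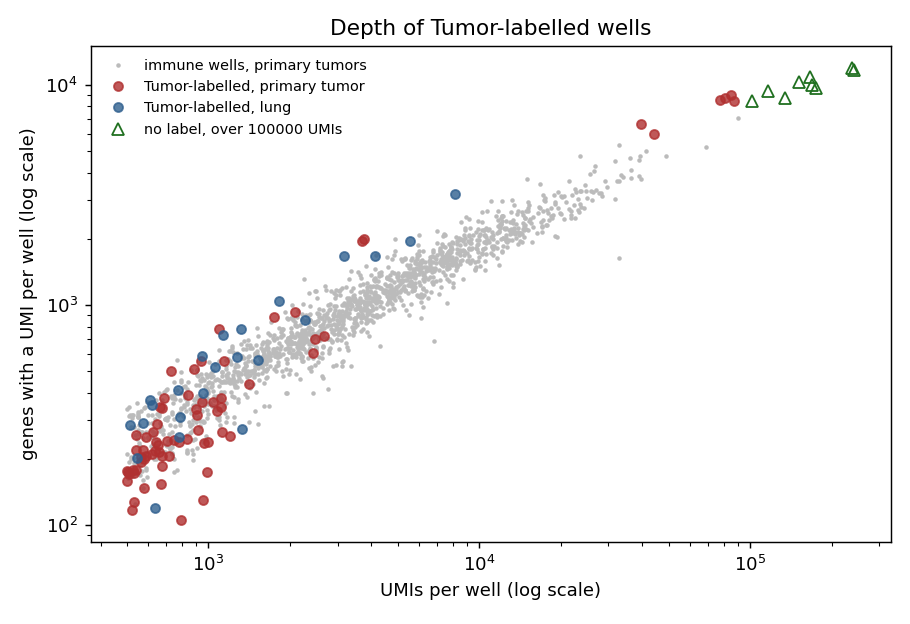
Genes with a UMI against UMIs per well, both on log scales, for immune wells of the primary tumors (grey), Tumor-labelled wells of primary tumors (red) and of lungs (blue), and wells without an annotation above 100000 UMIs (open triangles). The Tumor-labelled wells form a group of 88 below 8147 UMIs and a group of 6 above 39656 UMIs.

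The log2 ratio of the median UMI number of Tumor-labelled wells to that of immune wells of the same sample, averaged over the samples of a mouse, ran from -2.35 in mouse 9 to 3.25 in mouse 33, and its mean was -0.02 (SD 1.47, 14 mice, two-sided exact sign-flip test, p = 0.956). In the 4 primary tumors alone it was -1.36 in mouse 8, -2.35 in mouse 9, -2.44 in mouse 10 and -0.57 in mouse 38, so that the median Tumor-labelled well held fewer UMIs than the median immune well (mean -1.68 ± 0.89 SD; exact sign-flip p = 0.125, the smallest that 4 mice allow). By mean log2 UMIs instead of medians the ratio was -0.14, -2.36, -1.97 and 0.19 in these mice, so it turned in mouse 38. In metastatic lung tissue (MET, MET Core and MET Invasive margin) of 7 mice the mean ratio of medians was 0.99 ± 1.36 SD (exact sign-flip p = 0.125), and the gap between tumors and this tissue was -2.67 (two-sided exact permutation test, p = 0.0061). With the Distal normal well of mouse 36 added, at -1.05, the mean over 8 mice was 0.73 (exact sign-flip p = 0.219) and the gap -2.41 (exact permutation p = 0.0141). The comparisons with lung tissue were chosen after the ratios were seen. By sort, against GFP+ wells of cores and margins it was -3.16 (6 mice, exact permutation p = 0.0048), and against CD31-CD45+ wells of MET sections it was -0.81 (3 mice, exact permutation p = 0.2). The gap also holds a difference in immune wells. Their median was 1972 to 3689.5 UMIs in the 4 tumors and 745 to 1563 in these MET, MET Core and MET Invasive margin samples.

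Shallow wells of the tumors were also poorer in genes at equal depth. Thinned to 500 UMIs each, the deep wells held 374 to 429 genes, while shallow wells of mice 8, 9 and 10 had medians of 243, 192 and 183.5 genes against 307, 323 and 320 in immune wells of the same tumors. Shallow wells of mouse 38 differed from this, at a median of 333 genes against 328 in immune wells. In mouse 10 the median share of UMIs on Gm42418, Gm26917 and AY036118, loci that overlap ribosomal RNA, was 9.30% in its 44 shallow wells and 1.60% in immune wells, and the median mitochondrial share was 5.02% against 2.20%. The mitochondrial share was also higher in shallow wells of mice 8, 9 and 38, at 2.22, 3.41 and 3.72% against 1.59, 2.60 and 1.66%, while the ribosomal RNA share was 2.00% against 0.741% in mouse 8, 1.93% against 1.55% in mouse 9 and 1.21% against 1.64% in mouse 38. The mitochondrial share was thus higher in the shallow wells of all 4 tumors and the ribosomal RNA share in 3. Their part in the results for shallow wells was not tested. Deep wells did not share this: their mitochondrial share was 2.59% in mouse 8, 2.07 and 1.17% in mouse 10, and 0.197, 3.74 and 3.04% in mouse 38.

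Levels of the given marker pair, Krt8 and Krt18, are described here. They cannot check the label, which was made by clustering the same cells. Krt8 (mm10 chr15:101996698-102004482, minus strand) had 171 UMIs in 15 of the 94 wells. All 6 deep wells carried it, with 17 UMIs in mouse 8, 28 and 20 in mouse 10, and 19, 6 and 50 in mouse 38 (wells of a mouse in order of depth, here and for other genes), whereas 9 of 88 shallow wells did, with 1 to 7 UMIs each. Its level was 338 CPM (UMIs of the gene scaled to a total of 1000000) over the deep wells and 301 CPM over shallow wells of the primary tumors, against 9.05 CPM in 1557 immune wells of the same tumors and 0.386 CPM in 21868 immune wells of lungs. T cells of the primary tumors, which should lack the gene, had a Krt8 UMI in 5 of 404 wells (1.24%) at a median depth of 2006.5 UMIs, against 5 of 65 (7.69%) shallow Tumor-labelled wells at 716. Thinned to 500 UMIs, 1 of 6 deep wells and 4 of 65 shallow wells of the tumors held a Krt8 UMI, against 6 of 1557 immune wells, so that deep and shallow wells differed in detection at full depth. The shallow level rested on mouse 9, whose 2 wells gave 11 of the 19 UMIs: by tumor it was 0, 1661, 53.6 and 353 CPM in mice 8, 9, 10 and 38.

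Krt18, which neighbours Krt8 on chromosome 15, was at 0 in all 94 wells. The whole series held only 62 Krt18 UMIs, and of the 50-base words in the last 600 bases of its transcript 1.81% also occurred in another annotated transcript. Krt19, Krt7, Epcam, Cdh1, Cldn3, Cldn4, Cldn7, Dsp and Esrp1 were also at 0 in all 94 wells. In all, 14 of 20 epithelial genes had no UMI under the label, and Krt8 alone among the 20 passed the filter on low values described next. A lack of UMIs was common: 15923 of all 52634 genes had a UMI in Tumor-labelled wells of primary tumors and metastatic lung tissue. Basal keratins Krt5, Krt14 and Krt17 were at 0, and so were the defining genes of lung epithelium and mesothelium, Sftpc, Sftpb, Ager, Scgb1a1, Foxj1, Msln and Wt1. Krt8 was thus the 1 marker of the given pair with a count, and the classical epithelial adhesion genes gave no count in these wells.

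Expression under the label was set against immune wells of the same sample, as log2 of (CPM + 10) over UMIs summed across wells. Genes with a mean of at least 50 CPM were compared, and a gene was called higher or lower where the log2 ratio was at least 1, a 2-fold difference, in every tumor used. Since the label was made by clustering the same cells, these ratios are descriptions without a test. In the 3 tumors with at least 5 Tumor-labelled wells (mice 9, 10 and 38), 141 of 3811 genes (3.7%) were called higher and 438 (11.5%) lower. Mouse 9 had no deep well, and its 9 wells held 6623 UMIs together, so that 1 UMI there equals 151 CPM; 37 of the 141 higher genes rested on 1 UMI in that mouse. Without mouse 9, 556 of 4026 genes were called higher and 532 lower. A call there had to hold in 2 tumors instead of 3, a looser rule. The deep wells alone gave 446 of 4086 genes (10.9%) higher and 480 (11.7%) lower in all 3 tumors that had them (mice 8, 10 and 38). Depth and the exchange of mouse 9 for mouse 8 cannot be told apart in these counts.

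Spp1, which encodes osteopontin (mm10 chr5:104435118-104441050, plus strand), was the most abundant of the leading genes. The deep wells held 856 UMIs in mouse 8, 2033 and 2198 in mouse 10, and 1083, 1593 and 496 in mouse 38. As levels these were 21586, 25628 and 15103 CPM in mice 8, 10 and 38, against 624, 503 and 441 CPM in immune wells, a mean log2 ratio of 5.27 ± 0.33 (SD, n = 3). Shallow wells of mice 8, 9, 10 and 38 also lay above immune wells, at 9629, 12079, 7531 and 6113 CPM. Spp1 was found in 72 of 88 shallow wells. It was not limited to the label: T cells of the same tumors had 345 CPM and macrophages 562 CPM, and after thinning to 500 UMIs 15.1% of T cells still held an Spp1 UMI, against 84.6% of shallow Tumor-labelled wells of the tumors. Wells without a cell on these plates held 3 Spp1 UMIs (2417 CPM) and 0 Krt8 UMIs among 1241 UMIs. On so few UMIs this Spp1 level lay above immune wells of the tumors pooled, at 487 CPM. It lay below shallow Tumor-labelled wells of the tumors, at 7695 CPM.

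The 25 genes that stood highest above immune wells in all of mice 9, 10 and 38 included genes of collagens and of collagen folding. As lists, the fibroblast genes gave 1 higher and 0 lower of 7 in these mice. The matrix and protease genes gave 0 higher and 2 lower of 12, beside 3.7% and 11.5% of all genes. Col6a1 and Col6a3, chains of collagen VI, had log2 ratios of 4.71, 5.62 and 5.03 and of 5.67, 5.66 and 4.39 in mice 9, 10 and 38. Serpinh1, the collagen chaperone, had 4.41, 4.66 and 4.22, and Fkbp10, a prolyl isomerase of collagen folding, 3.38, 3.39 and 2.88. In wells without a Ptprc UMI the mean ratios of Fkbp10 and Ptgfrn, another of the 25, were 0.92 and 0.81, below the 2-fold limit. The caveolar scaffold Cav1 and the actin-binding Cald1 reached 4.01, 4.66 and 4.67, and 3.52, 4.32 and 4.63. Col4a1 and Lamb1 of the basement membrane, the adhesion protein Fermt2, and Wwtr1 (TAZ), a transcriptional coactivator, were also among the 25 leading genes. The list held Krt8 itself, at 6.94, 3.35 and 4.29, the highest of these resting on 11 UMIs of mouse 9.

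Igfbp4, a secreted binder of insulin-like growth factors, had 83 UMIs in the deep well of mouse 8, 238 and 399 in mouse 10, and 59, 412 and 156 in mouse 38, and a mean log2 ratio in the deep wells of 4.58 ± 0.21 (SD, n = 3). Rhox5, an X-linked homeobox gene whose normal expression lies in the reproductive tract, had 28 to 108 UMIs in every deep well, at levels of 1816, 1163 and 909 CPM in mice 8, 10 and 38 against 27.6, 25.8 and 30.8 CPM in immune wells. Fgfr1, a receptor for fibroblast growth factors, and Sox9, a transcription factor of progenitor states, were higher over all Tumor-labelled wells of mice 9, 10 and 38. Their log2 ratios in these mice were 6.84, 3.14 and 2.93 and 5.91, 3.40 and 4.06, the highest of each from mouse 9, which had no deep well. In the deep wells of mice 8, 10 and 38 their means were 3.16 and 3.70. Map1b, Uaca, Ptgfrn, Bcat1, Emp2, Nedd4, Syne2, Ybx3 and 4930550L24Rik completed the 25. Syne2 was not shared by mouse 8, whose 4 wells held 0 UMIs of it, and the other 24 had log2 ratios of 1.60 to 6.45 in that mouse, which the choice of genes had not used. Mouse 8 is no separate check of the label, since its wells were labelled by the same clustering. Its deep well alone gave 39656 of its 41733 UMIs.

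Promoter sequence is shown for 3 of these genes, which were high together, as the 250 bases before the RefSeq start (build GRCm38.p6), 5′ to 3′ on the gene's strand. Capitals mark the AP-1 motif TGANTCA, which reads the same on both strands.
Spp1, chr5:104434861-104435110, plus strand: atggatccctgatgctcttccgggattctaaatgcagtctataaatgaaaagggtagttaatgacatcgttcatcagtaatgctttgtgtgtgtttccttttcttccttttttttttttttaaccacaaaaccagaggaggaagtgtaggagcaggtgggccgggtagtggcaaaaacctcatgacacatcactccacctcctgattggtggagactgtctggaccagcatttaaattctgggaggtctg
Col6a1, chr10:76726045-76726294, minus strand: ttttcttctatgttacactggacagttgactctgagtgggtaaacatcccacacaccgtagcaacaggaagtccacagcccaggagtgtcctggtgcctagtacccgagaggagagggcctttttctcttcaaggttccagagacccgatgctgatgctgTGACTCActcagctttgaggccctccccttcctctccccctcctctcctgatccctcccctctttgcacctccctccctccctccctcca
Krt8, chr15:102004343-102004592, minus strand: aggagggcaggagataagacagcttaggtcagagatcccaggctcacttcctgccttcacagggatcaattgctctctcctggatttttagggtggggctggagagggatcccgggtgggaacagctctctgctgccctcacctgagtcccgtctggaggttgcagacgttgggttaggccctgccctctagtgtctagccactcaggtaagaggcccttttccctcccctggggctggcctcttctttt
TGANTCA was found in the Col6a1 window, 90 bases before the start, and not in the windows of Spp1 and Krt8. By the Krt8 span given above, part of the Krt8 window lies inside the gene, because the RefSeq start lies within that span. TGANTCA occurred in 2 of the 22 leading genes with a promoter entry (9.09%), against 6.75% of all 32851 promoters of that length. Among the 25 genes that led in the deep wells it occurred in 1 (4%). A match is a description of these letters only.

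Beside Krt8, the deep wells held mesenchymal genes. Of 18 mesenchymal genes counted, 12 passed the filter, 6 were higher and 2 lower in all 3 tumors (10.9% and 11.7% of all genes), and their median log2 ratio was 1.99 against 0.21 over all 4086 genes. Vim, encoding vimentin, stood at 4312, 7111 and 5204 CPM in mice 8, 10 and 38 against 1551, 1435 and 1099 CPM in immune wells. Sparc, a collagen-binding secreted protein, reached 706, 1054 and 857 CPM against 9.60, 17.9 and 14.7 CPM. Twist1, a transcription factor of epithelial-mesenchymal transition, had 6 UMIs in mouse 8, 19 and 18 in mouse 10, and 0, 26 and 17 in mouse 38. S100a4 and Tgfbi, which macrophages also express, were the pair that was lower. Across all Tumor-labelled wells of mice 9, 10 and 38 the same list gave 2 higher and 2 lower of 11, beside 3.7% and 11.5% of all genes in that comparison.

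Fibroblast collagens fell into a shared and an unshared part. Col6a1, Col6a2, Col3a1 and Pdgfra were higher in the deep wells of every tumor, 4 of 7 fibroblast genes past the filter beside 10.9% of all genes. Col1a1, Col1a2 and Mfap5, in contrast, came almost wholly from a single well of mouse 38 with 80935 UMIs, which held 155, 283 and 166 UMIs of them, while the other 5 deep wells held 0 or 1. The same well carried Dcn and Lum, small proteoglycans typical of fibroblasts, at 59 and 56 UMIs, which were at 0 in the other 5, and it had the fewest Krt8 and Rhox5 UMIs of the 6, at 6 and 28. Genes of the fibroblast list summed to 15197 CPM in it and to 793 to 2412 CPM in the others. Without this well the deep wells gave 450 higher and 448 lower genes. The mean log2 ratio in the deep wells was 4.94 for Col6a1 and 5.20 for Rhox5 without it, and 5.36 and 5.04 with it.

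Genes of immune cells were low in the deep wells but not absent. Thinned to 500 UMIs, Ptprc was found in 0 of 6 deep wells, in 10 of 65 shallow wells of the tumors (15.4%) and in 516 of 1557 immune wells (33.1%). In the deep wells at full depth all 10 pan-immune genes were lower in every tumor, as were all 12 myeloid and all 7 MHC class II genes, beside 11.7% of all genes. H2-Ab1 stood at 50.4, 115 and 652 CPM in mice 8, 10 and 38 against 13183, 11770 and 12859 CPM in immune wells. Ptprc, the gene of the sorted CD45 protein, had 0 UMIs in the deep wells of mice 8 and 10, and 7, 4 and 28 in those of mouse 38, compared with 674 to 1091 CPM in immune wells. The Ptprc-richest well, of 84971 UMIs, also held 247 UMIs of Cd74, 113 of H2-Ab1, 46 of Lyz2, 44 of C1qa and 11 of Trac, beside 50 UMIs of Krt8, the most of any of the 6. Myeloid genes summed to 7120 CPM in it and to 4398 CPM in the 44113-UMI well, against 114 to 383 CPM in the other 4. Leaving out the Ptprc-richest well gave 425 higher and 486 lower genes. Without it the mean log2 ratio was -6.77 for H2-Ab1 and -7.11 for Lyz2, and -6.20 and -6.63 with it.

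**Figure D3:**
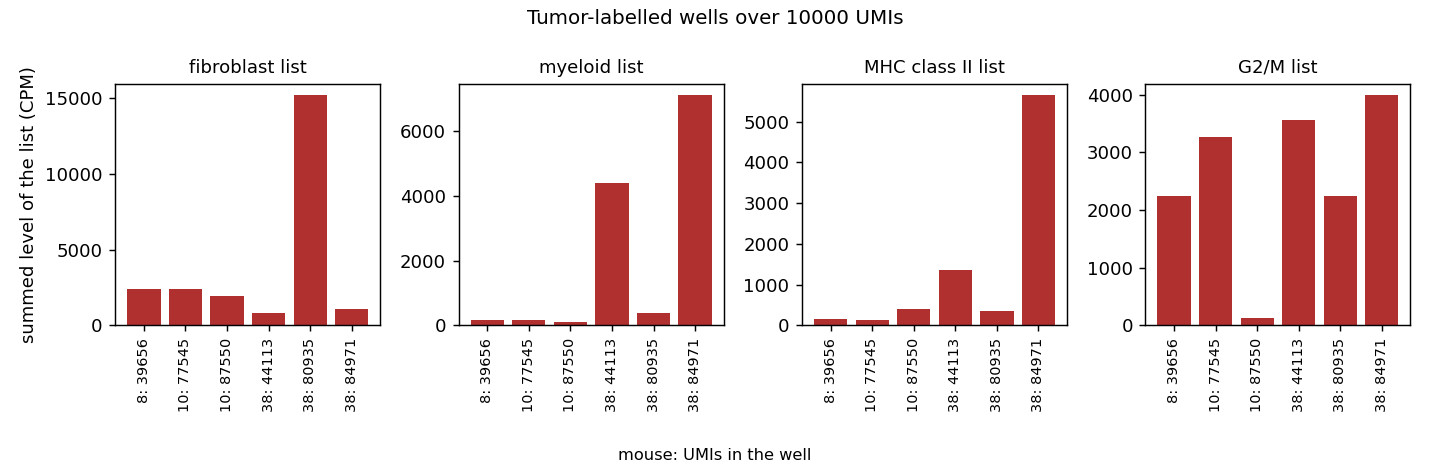
Summed level, in CPM, of the fibroblast, myeloid, MHC class II and G2/M lists in each deep Tumor-labelled well; bars are named by mouse and by the UMIs of the well. The 80935-UMI well of mouse 38 leads in fibroblast genes at 15197 CPM and the 84971-UMI well in myeloid genes at 7120 CPM.

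Cytokine genes of the deep wells were led by Spp1 and by a pair of monocyte attractants. Ccl7, a ligand of Ccr2, had 74 UMIs in mouse 8, 150 and 197 in mouse 10, and 36, 379 and 29 in mouse 38, with levels of 1866, 2102 and 2114 CPM against 109, 441 and 480 CPM in immune wells. Ccl2, its neighbour on chromosome 11 and also a Ccr2 ligand, had 115, 81, 23, 25, 173 and 93 UMIs in the same order of wells, and a log2 ratio of 2.95 ± 2.24 (SD, n = 3). Both genes are made by tumor macrophages too: macrophages of these tumors had 1383 CPM of Ccl7 and 647 CPM of Ccl2, so that their deep-well levels were close to or above those of macrophages. Ccl5, Cxcl16 and Ptgs2 were lower in all 3 tumors. Mif was called higher over all Tumor-labelled wells, with log2 ratios of at least 1.29 in mice 9, 10 and 38, but not in the deep wells (mean 1.14). Il6, Csf2, Csf3, Cxcl5, Il11 and Il1a were among 11 of 30 cytokine genes without a UMI under the label. Of all 52634 genes, 15923 had a UMI in Tumor-labelled wells of primary tumors and metastatic lung tissue.

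Of 15 genes of the MYC and nucleolar list 12 passed the filter, 9 were higher and 0 lower in every tumor, beside 10.9% and 11.7% of all genes, with a median log2 ratio of 1.91. Myc itself had 60 UMIs in mouse 8, 32 and 49 in mouse 10, and 40, 35 and 31 in mouse 38, at 1513, 491 and 505 CPM against 49.2, 33.4 and 71.1 CPM in immune wells. The nucleolar genes Ncl and Npm1 followed, with mean log2 ratios of 1.85 ± 0.74 and 1.76 ± 0.05 (SD, n = 3), whereas Nme1 was at -0.13 ± 0.57. Fosl1, which encodes the AP-1 subunit Fra-1, had 23, 27, 6, 37, 42 and 5 UMIs in the same order and a mean log2 ratio of 4.36 ± 1.36 (SD, n = 3).

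Cell cycle genes differed from well to well. Of the G1/S list 5 of 13 genes were higher in all 3 tumors (Mcm2, Mcm5, Rrm2, Cdt1 and Cdk4), and of the G2/M list 3 of 14 (Ccnb2, Birc5 and Racgap1), with 0 lower in either, beside 10.9% higher and 11.7% lower of all genes. Mki67, a nuclear protein of cycling cells, had 43 and 30 UMIs in a pair of mouse 38 wells, 3 in a well of mouse 10 and 0 in the other 3. Cdk1, the mitotic kinase, had 53 UMIs in the 84971-UMI well and 0 to 14 elsewhere. G2/M genes summed to 126 CPM in the 87550-UMI well of mouse 10 and to 2244 to 3990 CPM in the others, so that well stood apart from the rest.

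Of the glycolysis list, Eno1 and the lactate transporter Slc16a1 were higher in every tumor, 2 of 14 beside 10.9% of all genes, with mean log2 ratios of 1.61 ± 0.19 and 2.89 ± 0.08 (SD, n = 3). Ldha and Pkm had mean log2 ratios of 1.18 and 1.10 but missed the 2-fold limit in mouse 10. Among hypoxia genes P4ha2, which hydroxylates collagen, was higher in all 3 tumors, and Bnip3, Ndrg1 and Higd1a were not.

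Antigen presentation genes of class I gave 0 higher and 2 lower of 12, beside 10.9% and 11.7% of all genes. H2-D1 stood at 4337, 6657 and 4309 CPM in the deep wells of mice 8, 10 and 38 and at 3628, 3367 and 3988 CPM in immune wells, so the 3 tumors lay above their immune wells, by less than 2-fold. B2m, the shared light chain, had 1992, 7020 and 3004 CPM against 7003, 8019 and 8242 CPM. H2-K1 and the immunoproteasome gene Psmb10 were the pair lower in all 3 tumors. Interferon-response genes were lower for 9 of 18, among them Cxcl10, Isg15 and Irf7, beside 11.7% of all genes, and higher for 0, with a median log2 ratio of -2.22. In mouse 8 the deep well held 0 UMIs of Ifit1, Ifit3, Rsad2 and Tap1, while the mouse 38 deep wells stood at 176, 205, 71.4 and 143 CPM of them.

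Early-response and heat-shock genes were lower in the deep wells for 6 of 14, beside 11.7% of all genes, and higher for 0. Fos stood at 25.2, 36.3 and 71.4 CPM against 2549, 2585 and 1336 CPM in immune wells, and Hspa1a had 0 UMIs in all 6. Among surface proteins that act on immune cells, Nt5e (CD73), which makes adenosine, was higher in every tumor although a well each of mice 10 and 38 held 0 UMIs of it, at 378, 90.9 and 124 CPM against 7.20, 12.2 and 9.52 CPM, while Cd86 was lower. Cd47 was between 202 and 281 CPM and lay below immune wells without passing the 2-fold limit in any tumor. Timp1 and Timp2, inhibitors of metalloproteinases, and Ctsl, a lysosomal protease, were higher in all 3 tumors, whereas the iron-storage gene Ftl1 and the heme oxygenase Hmox1, 2 of 8 antioxidant and iron genes, were lower. The matrix and protease list had 5 higher and 1 lower of 14, beside 10.9% and 11.7% of all genes, and a median log2 ratio of 0.32.

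The remaining lists of other cell types added little. Of T cell, B cell, NK and neutrophil genes 5 of 6, 3 of 3, 3 of 3 and 2 of 2 were lower in the deep wells, beside 11.7% of all genes. Of 14 mammary luminal genes only Xbp1 passed the filter, and it was lower, and 0 of 8 mammary basal genes passed. No endothelial, airway, mesothelial or erythroid gene passed, and 1 alveolar gene passed without a call. Ribosomal protein genes gave 2 higher of 52 and mitochondrial genes 0 of 13, beside 10.9% of all genes.

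**Figure D4:**
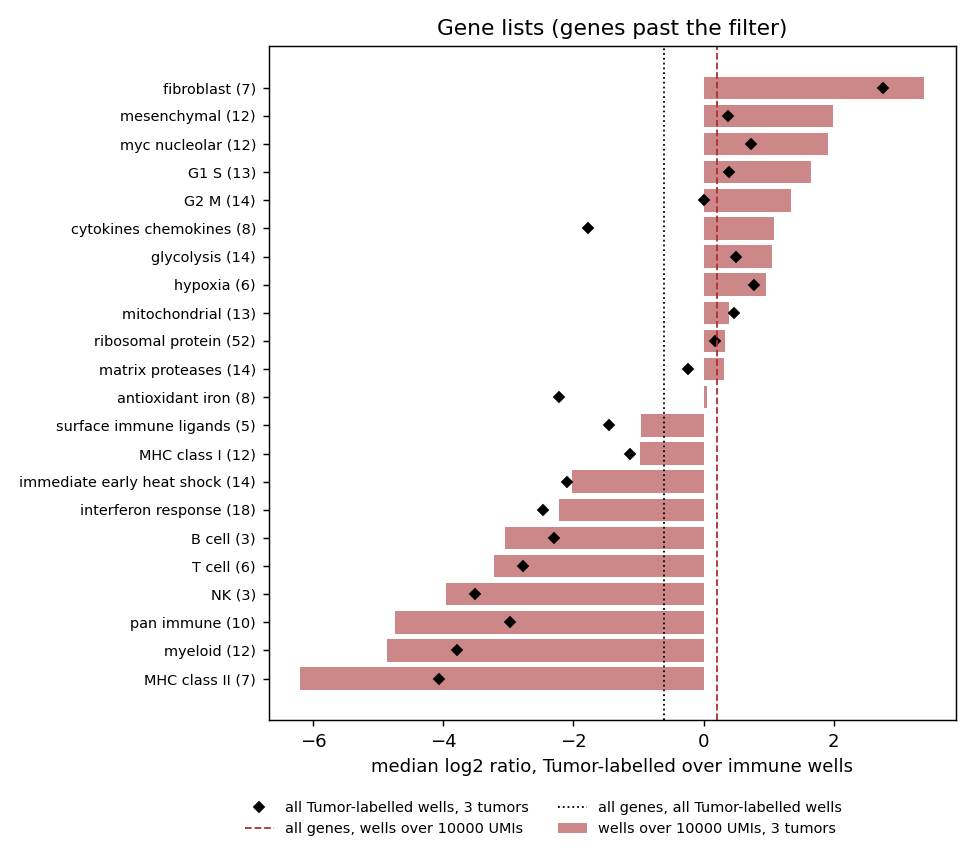
Median log2 ratio of Tumor-labelled over immune wells for each gene list with at least 3 genes past the filter in the deep wells, with the number of genes past the filter in the deep wells in parentheses; bars show the deep wells of 3 tumors, diamonds all Tumor-labelled wells of mice 9, 10 and 38, and vertical lines the medians over all genes, 0.21 and -0.61. Fibroblast, mesenchymal and MYC-nucleolar lists lie farthest to the right among these and MHC class II, myeloid and pan-immune lists farthest to the left.

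At the low end over mice 9, 10 and 38, Ccl5 and Plac8 had log2 ratios of -6.72, -5.96 and -5.54 and of -6.44, -6.94 and -5.38, on 0, 1 and 7 UMIs and on 0, 0 and 5 UMIs, and Lyz2, the lysozyme of macrophages, of -4.40, -6.35 and -4.41. With so few UMIs the size of the ratios of such genes depended on the 10 CPM added. H2-Ab1, Ly6c2, Igkc, Ccl9, Cd14, Csf2ra, Cxcl10, Slfn1, Phf11b, Gm9733 and Ifit1bl1 were also among the lowest 15. The 4 wells of mouse 8 had 0 UMIs of Ccl5, Plac8, Ccl9, Cd14, Igkc and Csf2ra as well.

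Few genes were called higher in shallow wells, and the part of depth in this was not tested. Over mice 8, 9, 10 and 38, 19 of 3592 genes (0.529%) were higher and 412 (11.5%) lower than in immune wells. The median log2 ratio over all 3592 genes was -1.20, itself beyond 2-fold. A higher call needed all 4 tumors, and shallow wells of mouse 8 held 2077 UMIs. These counts therefore cannot show how far the profile of the deep wells was shared. Of the 19 higher genes, 8 (42.1%) were among the 446 higher genes of the deep wells. Of all 3592 genes compared in shallow wells, 213 were among the 446. Spp1, Col6a1, Igfbp4, Nedd4 and Ybx3 were higher in all 4 tumors, Col6a1 and Ybx3 on 1 UMI each (481 CPM) in mouse 8. Rhox5 was at 604, 992 and 647 CPM in mice 9, 10 and 38 and at 0 in the 2077 UMIs of mouse 8. Shallow wells of mouse 9 held 1661 CPM of Krt8, all of it in 2 wells with 4 and 7 UMIs, which shows how few UMIs carried a level in these wells.

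Counted well by well, the 25 leading genes of the deep wells (those with the highest lowest ratio over mice 8, 10 and 38) are given as a description, since they were chosen in the deep wells and since depth differed, at a median of 79240 UMIs in deep and 716 in shallow wells. A deep well held a UMI of 21 to 25 of them. Among the 65 shallow wells of primary tumors the median was 2 genes, 30 wells (46.2%) held at least 3 and 2 held none. Immune wells of the same tumors, although deeper, held a median of 1, and 114 of 1557 (7.32%) held at least 3. The 25 genes took a median of 3.93% of UMIs in deep wells, 1.16% in shallow wells and 0.0273% in immune wells.

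In MET, MET Core and MET Invasive margin samples the 17 Tumor-labelled wells came from both sorts. The 12 GFP+ wells of cores and margins, from 6 mice, had 769 to 8147 UMIs and held 4 to 21 of the 25 leading genes each. The 5 CD31-CD45+ wells of MET sections, from 3 mice, had 545 to 955 UMIs and held 0 or 1. Depth moved with the sort here, and so in part did sequencing batch. Of the 5 CD31-CD45+ wells, 4 came from the batch that held the primary tumor of mouse 8, and no GFP+ well did. The parts of depth and batch were not tested. Over the GFP+ wells Krt8 had 12 UMIs (377 CPM), Rhox5 25 (786 CPM), Igfbp4 76 (2389 CPM), Sdc1 37 (1163 CPM), Sparc 30 (943 CPM) and Col3a1 29 (911 CPM), while immune wells of the same lungs had 0.601, 2.71, 29.9, 12.3, 5.41 and 3.61 CPM. The CD31-CD45+ wells had 0 UMIs of all 6 genes in 3487 UMIs, and the difference was not tested. Spp1 had 398 UMIs in the GFP+ wells (12510 CPM) and 34 in the CD31-CD45+ wells, of which 32 lay in the 634-UMI well of mouse 32. Krt8 came from mice 26 and 32, with 5, 2 and 3 UMIs in 3 wells of mouse 26 and 2 UMIs in a well of mouse 32.

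The 8147-UMI well of mouse 33 was the deepest of the lung and held 3193 genes and 21 of the 25. It also held 44 UMIs of endothelial genes, 62 of MHC class II genes and 0 of epithelial genes, and it gave 50 of the 76 Igfbp4 UMIs of the GFP+ wells. The 4132-UMI well of mouse 30 gave 209 of their 398 Spp1 UMIs and 18 of their 29 Col3a1 UMIs, held 61 UMIs of fibroblast genes (14763 CPM) and had 0 UMIs of Krt8, Rhox5 and Igfbp4. Of the 6 other lung wells, including the Distal normal well of mouse 36, 4 held none of the 25; the exceptions were the well of the Normal lung with 1 gene and the GFP+ well of the Relapse-free lung of mouse 6, of 621 UMIs, with 5. The label in the Pre-MET and Distal normal wells was therefore not accompanied by the leading genes of the deep wells.

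**Figure D5:**
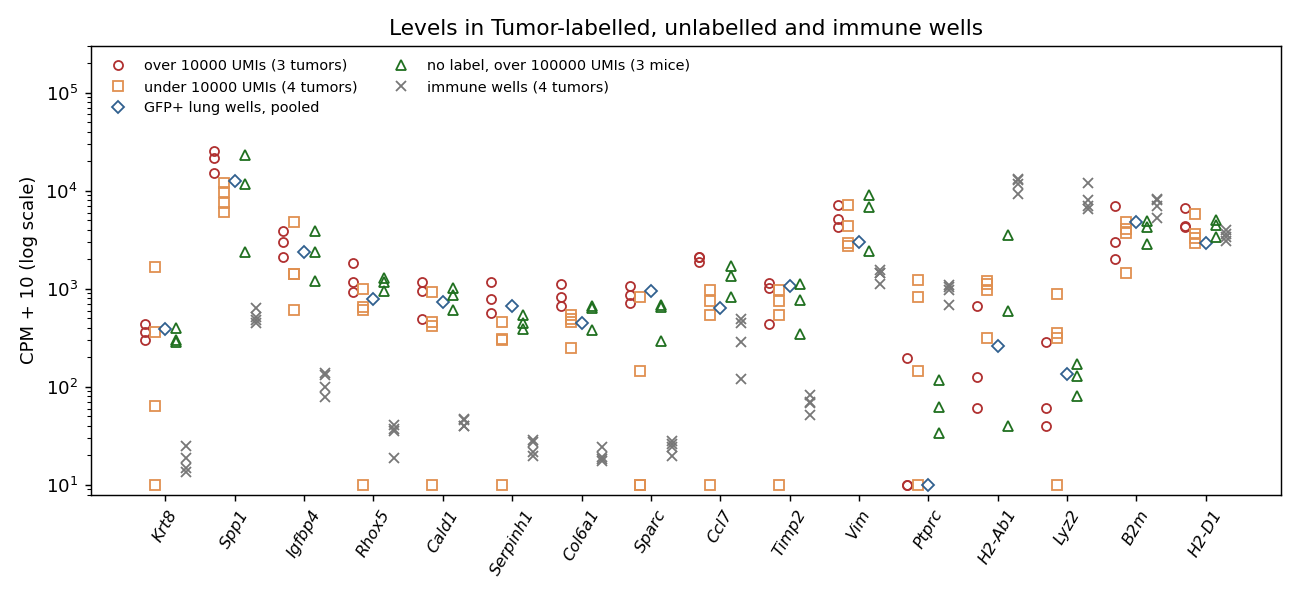
Levels as CPM + 10 on a log scale, where 10 means no UMI, for 16 genes in deep wells (circles, 3 tumors), shallow wells (squares, 4 tumors), pooled GFP+ lung wells (diamonds), wells without an annotation above 100000 UMIs (triangles, 3 mice) and immune wells (crosses, 4 tumors). Spp1, Igfbp4, Col6a1 and Vim lie above immune wells in all of these sets, H2-Ab1 and Lyz2 lie below, and B2m and H2-D1 overlap with them.

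Tumor-labelled wells of primary tumors and of metastatic lung tissue, without Distal normal tissue, were compared directly, with the wells of each mouse summed (4 and 7 mice). Only 67 genes had enough UMIs for the edgeR quasi-likelihood test, and 0 were called in either direction at an adjusted p below 0.05 (0.0% each; 1 gene had an unadjusted p below 0.05, and DESeq2 called 0 with 7 such genes). Spp1 was at 20991, 12079, 22292 and 14430 CPM in mice 8, 9, 10 and 38 and at 0 to 50581 CPM in the lungs, a log2 difference of 0.10 ± 1.29 (SE; edgeR adjusted p = 0.996). The lung sums held 955 to 10981 UMIs. Krt8 was not among the 67 genes, and Krt18 had no UMI in either site. Without the filter on low counts 15923 genes were tested and 0 were called. What size of difference in Krt8 could be detected at this depth was not tested. Against CD31-CD45+ lung wells alone 21 of 51 genes were higher in primary tumors, with 955 to 1325 UMIs per lung sum.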

How the data were processed

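Cells were sorted singly into plates of 384 wells, 592 wells being left without a cell, and the 3' ends of transcripts were tagged with unique molecular identifiers. The authors demultiplexed reads with bcl2fastq 2.15.0.4, aligned them to mm10 with HISAT, left out multiply mapping reads and deposited raw UMI counts per gene and well, along with other columns holding well barcodes, mouse, tissue, sort and cell annotation. Annotated wells held at least 500 UMIs. All 148 plates, 63 samples (1 tissue of 1 mouse) and 27 mice in 12 sequencing batches were read here. The label was joined by well identifier. Immune wells were annotated wells other than Tumor, Outlier and Erythrocytes.

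Wells were summed per tumor and set against immune wells of the same tumor as log2 of (CPM + 10), for genes with a mean of at least 50 CPM, in tumors with at least 5 Tumor-labelled wells. This minimum of 5 was not applied to the deep wells (mice 8, 10 and 38) or to the shallow wells (mice 8, 9, 10 and 38). Named genes were the 25 whose lowest ratio over tumors was highest, the 15 at the other end, and the members of gene lists for epithelium, mammary luminal and basal cells, mesenchyme, fibroblasts, endothelium, alveolar, airway and mesothelial cells, immune classes, erythroid cells, cell cycle, metabolism, antigen presentation, interferon, cytokines, proteases, surface ligands, receptors, MYC targets, early response and iron. Members and lists were chosen with earlier results of these data known. Shares and UMI ratios were compared by exact permutation or sign-flip tests over samples, or 100000 resamples. Sort and sequencing batch are given per plate and are tied to site in part, and p-values measure the spread between mice. Primary and lung sums were compared by edgeR 4.0.16 quasi-likelihood tests with Benjamini-Hochberg adjustment, and with DESeq2 1.42.0, in R 4.3.3. Other steps used Python 3.11.15, numpy 2.4.6, scipy 1.17.1 and pandas 2.3.3. Scripts were tested on simulated counts. Alternatives were other pseudocounts, filters, weightings, depths and well sets, and leaving out each tumor. Some genes that the rule names are not reported here.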

Additional observations from a re-analysis of the deposited data

Results flagged for a closer look

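The share of Tumor-labelled wells in the primary tumor of mouse 10, 10.2%, stood apart from the other 3 tumors (Dixon ratio 0.857 against a critical value of 0.829). In Relapse-free lungs mouse 6, at 0.277%, stood apart from 5 lungs at 0. With 5 values at 0 any other value is marked, this one rests on 3 of 1082 wells, and the Wilson intervals of the lungs at 0 reach up to 2.46%. Chance marks about 1 in 20 groups in this way. The log2 UMI ratio of Tumor-labelled to immune wells differed between primary tumors and metastatic lung tissue by -2.67 (exact permutation test, p = 0.0061), or by -2.41 with the Distal normal well of mouse 36 included. Both comparisons were added after seeing the data. Immune wells differed in depth as well, with medians of 1972 to 3689.5 UMIs in the tumors and 745 to 1563 in samples of metastatic lung tissue.

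A signal lay outside the label. Krt8 had 477 UMIs in 9 wells of 101606 to 242243 UMIs that carried no annotation, 8 of them on primary tumor plates of mice 10 and 38 and 1 in a MET sample of mouse 31. All 9 were deeper than the deepest annotated well, of 90142 UMIs. Each held all 25 leading genes of the deep Tumor-labelled wells, and each of those genes was at least 2-fold above immune wells in the wells of each of the 3 mice. This is a description only. No immune well had such a depth, and the 25 were chosen by ratios to immune wells that included those of mice 10 and 38. The other 119 unannotated wells with at least 500 UMIs held 7 Krt8 UMIs.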

How the results depend on the processing

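With wells of at least 1000 UMIs, the excess of Tumor-labelled wells in primary tumors over MET Core was 1.12 percentage points (exact permutation p = 0.056) and that of MET over Distal normal tissue turned to -0.013 (permutation p = 1). Leaving out each tumor gave 1.82, without mouse 10, to 4.78 percentage points, all past the threshold, and leaving out each MET sample gave 0.0331 to 0.0621. Paired by mouse, as a replicate block, the latter was 0.0556 (exact sign-flip p = 0.25). The block changed no call, which it could not have done, as only 4 mice differed. The UMI ratio over 14 mice turned to 0.0198 by mean log2 UMIs and ran from -0.27 to 0.157 when each mouse was left out, turning to 0.00517, 0.00804, 0.0807, 0.157, 0.0612, 0.0568 and 0.0198 without mouse 1, 6, 8, 9, 10, 36 and 38, so it had no stable sign. Against 141 higher genes, 56 were called from the mean of per-well CPM and 80 from wells without a Ptprc UMI; a filter of 20 CPM gave 731 lower genes against 438. Wells over 10000 UMIs gave 446 higher genes, or 425 without the Ptprc-richest and 450 without the Col1a2-richest well, and wells under it 19, all settings chosen after seeing the data. Leaving out each tumor gave 255 to 556 higher genes and 504 to 600 lower genes. A call then had to hold in 2 tumors instead of 3, a looser rule, so a rise in these counts is built in. In the comparison of primary tumors with lungs, edgeR called 0 genes with each tumor left out and 21 against CD31-CD45+ lung wells only. For the 25 highest and 15 lowest genes, the only named genes run under the alternatives, no mean ratio changed sign, but 29 of 40 moved by more than 1 SD with a pseudocount of 1 CPM (Ccl9 from -5.06 to -8.34, Lamb1 from 3.97 to 6.10) and 24 with the mean of per-well CPM (Col6a1 from 5.12 to 3.15, Cav1 from 4.45 to 2.69). The causes were not tested. Of the 94 wells, 60 held under 1000 UMIs.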

Other observations

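The 9 wells without an annotation differed among themselves in the same genes that set single deep Tumor-labelled wells apart. Col1a2 had 135 UMIs in the 151316-UMI well of mouse 10 and 175 in the 116261-UMI well of mouse 38, which also held the fewest Krt8 UMIs of their mice, at 20 and 12, and 0 to 2 in the other 7. H2-Ab1 had 551 and 1097 UMIs in a pair of mouse 10 wells and 1 in the third. The MET well of mouse 31, of 168782 UMIs, held 47 UMIs of Krt8, 401 of Spp1, 216 of Rhox5, 71 of Twist1 and 4 of Ptprc. Krt18 was at 0 in all 9.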
